A study of Mus musculus with 12 samples.

Results

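Stefins and cystatins are inhibitors of cysteine proteases, and 7 of their genes were examined among the 18505 genes with a value in mouse back skin. They were chosen by symbol as Stfa1, Stfa2, Stfa3 and Stfa2l1, which are members of the stefin A gene cluster, and Cst3, Cst6 and Cstb, which lie on other chromosomes. The latter are called the single cystatins here, a name that says only that they lie outside the stefin A cluster. All 7 members were listed and passed the filter on low values. The study asked how Banzhilian formula (BZLF), a Chinese herbal formula applied to the skin, changes the transcriptome of lesions made with imiquimod (IMQ), a cream that gives psoriasis-like inflammation.

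Total RNA of skin was sequenced from wild-type BALB/c mice on day 10, with 4 samples in each of 3 groups. The mice were male and 5 to 6 weeks old by the study's methods, and the back hair of every group was shaved. The control group received petroleum jelly, and the labels call this treatment white space handling. The IMQ + NS group received IMQ cream and then a cover of normal saline under gauze and film. The IMQ + BZLF group received the same cream followed by BZLF, also under gauze and film. No such cover is described for the control group, so IMQ and the cover cannot be told apart in comparisons with control. The dose of BZLF used for the sequenced samples is not given in the sources used here, and no group received BZLF without IMQ. Levels are in FPKM, fragment numbers divided by transcript length and by library size, so that genes can be compared per length.

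Cystatins block papain-like cysteine proteases such as the cathepsins by filling the active site cleft, and they bind reversibly. Stefins (type 1 cystatins) lack a signal peptide and work mostly inside cells, whereas type 2 cystatins such as cystatin C and cystatin E/M are secreted. Stefin A is a component of the cornified envelope of the epidermis, and mice carry a cluster of stefin A genes that are also known from neutrophils. Cst6 encodes cystatin E/M, an inhibitor of cathepsin L and legumain that the epidermis and hair follicle need for normal cornification.

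Both kinds of inhibitor share a short stretch that enters the protease, the glutamine-any residue-valine-any residue-glycine motif. The 45 coding bases around it are shown for the 7 members because they show how alike the stefin A genes and the single cystatins are at the inhibitory site, with the 15 bases of the motif's codons in capitals. The sequences were read 5′ to 3′ from the coding strand of GENCODE M21 transcripts (GRCm38), which come from C57BL/6J and not from BALB/c mice.
Stfa1: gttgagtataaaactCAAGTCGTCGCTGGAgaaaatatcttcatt
Stfa2: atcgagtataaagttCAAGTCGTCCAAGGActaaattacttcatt
Stfa3: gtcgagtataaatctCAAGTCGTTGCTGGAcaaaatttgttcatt
Stfa2l1: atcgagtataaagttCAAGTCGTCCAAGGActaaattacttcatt
Cst3: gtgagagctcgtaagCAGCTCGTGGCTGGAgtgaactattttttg
Cst6: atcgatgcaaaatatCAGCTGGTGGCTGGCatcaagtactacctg
Cstb: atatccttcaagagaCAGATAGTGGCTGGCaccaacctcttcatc

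Each of the 7 genes has its coding sequence in 3 exons. In GRCm38 the cluster members lie on chromosome 16, with Stfa2l1 at chr16:36156811-36161953 and Stfa1 at chr16:36276951-36285373 on the plus strand. Stfa2 at chr16:36403992-36408457 and Stfa3 at chr16:36450537-36455392 lie on the minus strand. The single cystatins are Cst3 at chr2:148871722-148875692 and Cst6 at chr19:5344705-5349574 on the minus strand, and Cstb at chr10:78425669-78427622 on the plus strand. Over the coding sequence, Stfa2 and Stfa2l1 were 96.4% identical, Stfa3 was 80.9% identical to Stfa2 and 79.6% to Stfa1, and Cst3 and Cst6 were 52.5% identical. The closest relative of Stfa1 was Cstdc5, a neighbouring stefin A gene, with 97.9%.

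This likeness bears on the levels of 3 members. Of the 50-base windows of the Stfa1 transcript, 26.9% also occurred in Cstdc5 or Cstdc6, and 14.7% of the Stfa2 windows and 16.8% of the Stfa2l1 windows occurred in each other. Stfa3, Cst3, Cst6 and Cstb had no such window in the other 11 members and cluster genes. Values of Stfa1, Stfa2 and Stfa2l1 are therefore uncertain to the extent that shared fragments were divided among the copies, whereas no window of this length was shared by the other 4 members.

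A 13-base run, shown in capitals, was picked after the sequences had been seen, as the longest shared by the promoters of the 4 stefin A members. Its presence in these 4 was thus fixed in advance. The run is shown for Stfa3 and Stfa2l1. The IMQ + BZLF samples stayed above the control samples for Stfa3, as for Stfa1 and Stfa2, and overlapped them for Stfa2l1. The lines give the 100 bases before the RefSeq start site on the gene's own strand (GRCm38.p6), at chr16:36455393-36455492 for Stfa3 and chr16:36156711-36156810 for Stfa2l1.
Stfa3: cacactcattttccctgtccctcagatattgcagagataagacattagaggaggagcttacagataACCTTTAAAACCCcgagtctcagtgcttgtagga
Stfa2l1: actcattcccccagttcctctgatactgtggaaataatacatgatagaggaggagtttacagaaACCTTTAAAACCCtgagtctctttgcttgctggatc
The run began 32 to 36 bases before the start site, and it occurred, on either strand, in 8 of 32851 promoters (0.0244%), the other 4 belonging to Csta3, Cstdc3, Cstdc4 and Gm7260, of which the first 3 are named as cystatin-family genes. Promoters of Stfa1, Stfa2, Stfa3, Stfa2l1 and Cst3 were found in RefSeq, and Cst6 and Cstb had no entry. In the 250 bases before the start, 4 motifs were searched on both strands, only as the letters given. The shared run holds the letters TTTAAA, a variant of TATAAA that was not counted. The TATA box letters TATAAA were in 0 of these 5 promoters and in 12.4% of all promoters. The AP-1 letters TGANTCA were in 0 and in 6.75%, and the STAT letters TTCNNNGAA in 0 and in 7.02%. The C/EBP letters TTGCNNAA were in 1 of the 5, that of Stfa1, and in 9.56% of all promoters.

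Markers of skin cell types were present in every group, and 1 library stood apart. Keratinocyte markers (10 genes) added up to between 2303 and 7988 FPKM over the 12 samples. Markers of the hair shaft and inner root sheath added up to 2018 FPKM in control replicate 2, against 26.3 to 73.0 in the other 3 control samples, 11497 to 15087 in IMQ + NS and 14430 to 20935 in IMQ + BZLF samples. Summed over all genes, the samples ranged from 444660 to 506622 FPKM. Differences were tested with limma on log2(FPKM + 0.1), and a gene was called higher or lower at an adjusted p below 0.05 with more than a 2-fold change. The constant of 0.1 understates the change of genes near 0.

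Stfa3, by far the most abundant of the 4 stefin A members, changed over a range of more than 2 orders of magnitude. Its FPKM was 6.38, 6.98, 8.87 and 9.88 in the control samples, 1545, 2244, 2589 and 1461 in the IMQ + NS samples, and 74.5, 115, 456 and 478 in the IMQ + BZLF samples. None of the groups overlapped, and the IMQ + BZLF samples split into replicates 1 and 2 with low values and replicates 3 and 4 with high ones. Stfa3 rose in IMQ + NS against control by 7.89 on the log2 scale (SE 0.21, limma adjusted p = 4.91e-08), from a mean of 8.03 ± 1.63 to 1960 ± 547 FPKM (SD, n = 4), or 244-fold. Compared with IMQ + NS, it fell by 3.19 on the log2 scale in IMQ + BZLF (SE 0.58, limma adjusted p = 0.0147) and stayed 4.70 above control (SE 0.58, limma adjusted p = 3.67e-04). Without IMQ + BZLF replicate 2, the fall was 2.91 on the log2 scale with a limma adjusted p of 0.0525, past the limit of 0.05. In bulk tissue, fewer cells of a type and less RNA per cell cannot be told apart, for this gene and those below.

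**Figure D1:**
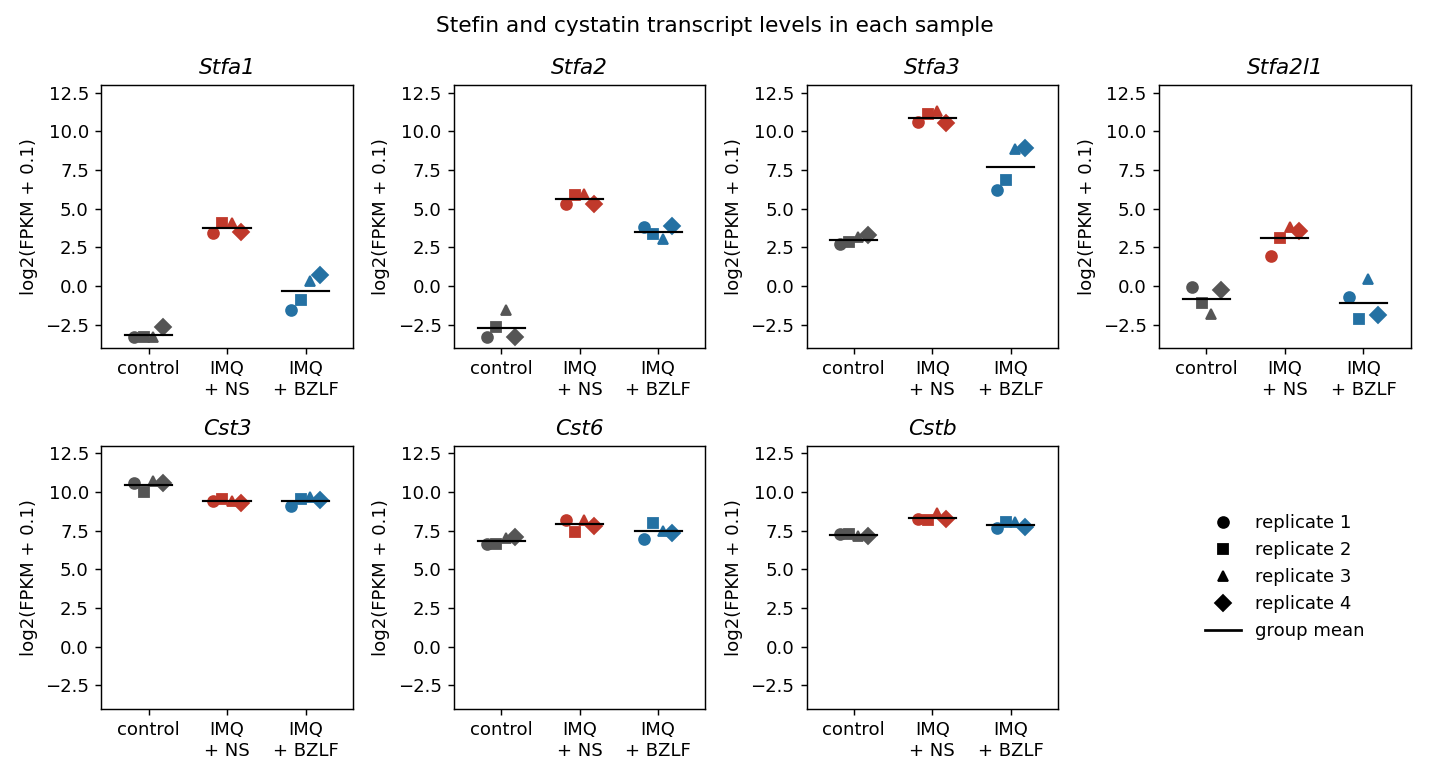
Level of each member in each of the 12 samples, as log2(FPKM + 0.1) on a common axis, with 1 symbol per sample and a line at the mean of the 4 samples of a group. The 4 stefin A members (upper row) span the axis, from 0 FPKM in some control samples to 2589 FPKM for Stfa3 in IMQ + NS, while Cst3, Cst6 and Cstb (lower row) stay between 99.1 and 1690 FPKM.

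Stfa2, also an intracellular stefin A, was near 0 in control skin. Its FPKM was 0, 0.0591, 0.242 and 0 in the control samples, 38.7, 58.7, 61.0 and 39.2 in the IMQ + NS samples and 13.7, 10.3, 7.97 and 14.4 in the IMQ + BZLF samples. The groups did not overlap. Its rise in IMQ + NS was 8.31 on the log2 scale (SE 0.39, limma adjusted p = 1.09e-06). In IMQ + BZLF it fell by 2.09 on the log2 scale from IMQ + NS (SE 0.22, limma adjusted p = 0.00157), and it remained 6.22 above control (SE 0.40, limma adjusted p = 1.01e-05). The mean in IMQ + NS, 49.4 ± 12.1 FPKM, was 4.27 times that in IMQ + BZLF, 11.6 ± 3.0 FPKM (SD, n = 4).

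Stfa1 was listed at 0 in 3 control samples and at 0.0616 in replicate 4. It reached 10.9, 16.4, 17.1 and 11.03 FPKM in the IMQ + NS samples and 0.246, 0.436, 1.15 and 1.52 FPKM in the IMQ + BZLF samples, again without overlap between groups and with replicates 1 and 2 the lowest under BZLF. The log2 differences were 6.92 for IMQ + NS against control (SE 0.23, limma adjusted p = 1.68e-07), -4.12 for IMQ + BZLF against IMQ + NS (SE 0.45, limma adjusted p = 0.00183) and 2.80 for IMQ + BZLF against control (SE 0.48, limma adjusted p = 0.00162). With a constant of 1 in place of 0.1, the last of these was 0.80 and no longer past 2-fold. Stfa1 amounted to 0.267 to 0.373% of the FPKM of its near-copy Cstdc5 in the IMQ + NS samples and to 0.119 to 0.158% in the IMQ + BZLF samples, and how much of it came from shared fragments was not tested. Stfa1 and Stfa2 kept a nearly constant ratio over the IMQ + NS samples, but not over the IMQ + BZLF samples. Their transcripts shared no 50-base window. Whether their values in IMQ + NS are separate measurements was not tested.

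Stfa2l1, the near-copy of Stfa2, was the stefin A member whose IMQ + BZLF samples overlapped the control samples. The control samples had 0.846, 0.362, 0.185 and 0.747 FPKM, the IMQ + NS samples 3.78, 8.59, 13.8 and 11.9 FPKM and the IMQ + BZLF samples 0.498, 0.126, 1.29 and 0.177 FPKM. IMQ + NS lay above both other groups, which overlapped. The rise was 3.92 on the log2 scale (SE 0.49, limma adjusted p = 2.46e-04), and the level under BZLF fell by 4.18 on the log2 scale (SE 0.59, limma adjusted p = 0.00612). Against control, IMQ + BZLF differed by -0.26 on the log2 scale with a 95% interval from -1.65 to 1.13 (limma adjusted p = 0.741), and the interval takes in 2-fold differences in both directions. Its sign turned without IMQ + BZLF replicate 2 (0.10) or replicate 4 (0.0040).

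Cstb encodes stefin B, the widely expressed intracellular stefin. Its FPKM was 154, 158, 145 and 142 in the control samples, 311, 295, 399.7 and 312 in the IMQ + NS samples and 201, 274, 268 and 211 in the IMQ + BZLF samples. All 3 groups were apart, with IMQ + BZLF in between. Cstb rose by 1.13 on the log2 scale in IMQ + NS (SE 0.10, limma adjusted p = 4.59e-05), a change of 2.20-fold in the mean. IMQ + BZLF differed from IMQ + NS by -0.47 with a 95% interval from -0.77 to -0.17, which did not pass the test (limma adjusted p = 0.0704), and from control by 0.66 (SE 0.11, limma adjusted p = 0.00175), less than 2-fold. With columns rescaled to equal sums the rise was 0.99, just under 2-fold.

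Cst6, the cystatin E/M gene, was measured at 100.2, 99.1, 132 and 139 FPKM in the control samples. It was 292, 172, 299 and 227 FPKM in the IMQ + NS samples and 127, 260.4, 182 and 163 FPKM in the IMQ + BZLF samples. The IMQ + NS samples lay above all control samples, and the IMQ + BZLF samples overlapped both. Cst6 rose by 1.06 on the log2 scale in IMQ + NS (SE 0.19, limma adjusted p = 0.00191), just past the limit of 2-fold. The difference between IMQ + BZLF and IMQ + NS was -0.45 with a 95% interval from -0.98 to 0.08 (limma adjusted p = 0.296), and that between IMQ + BZLF and control was 0.61 (SE 0.21, limma adjusted p = 0.0403), under 2-fold. The rise in IMQ + NS was under 2-fold without control replicate 1 (0.99), control replicate 2 (0.98), IMQ + NS replicate 1 (0.97) or IMQ + NS replicate 3 (0.95), and also with equal sums (0.92) or quantile normalization (0.96), while its adjusted p stayed between 7.71e-04 and 0.0078 over the alternatives.

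Cst3, which encodes cystatin C, a secreted inhibitor made by most cell types, was the member that fell in both IMQ groups. The control samples had 1545, 1036, 1690 and 1513 FPKM, the IMQ + NS samples 690, 741, 671 and 632 FPKM, and the IMQ + BZLF samples 558, 740, 817 and 712 FPKM. The control samples lay above all others, control replicate 2 being the lowest of them, and the IMQ + NS and IMQ + BZLF samples overlapped. Cst3 fell by 1.06 on the log2 scale in IMQ + NS (SE 0.15, limma adjusted p = 4.21e-04) and by 1.02 in IMQ + BZLF (SE 0.17, limma adjusted p = 0.00149), both against control. Between IMQ + BZLF and IMQ + NS the difference was 0.04 with a 95% interval from -0.23 to 0.30 (limma adjusted p = 0.883), and it was -0.04 without IMQ + BZLF replicate 3. The fall in IMQ + NS was 0.98 without control replicate 3, and the fall in IMQ + BZLF was 0.98, 0.94, 0.99 and 0.91 without control replicates 1, 3 and 4 and IMQ + BZLF replicate 1, respectively, each under 2-fold on the log2 scale at adjusted p-values of 0.00163 to 0.00638.

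Between IMQ + NS and control, 6 of the 7 members were called higher and 1 was called lower, where 11.4% and 11% of the 15288 genes tested were called higher and lower. The 4 stefin A members had a median log2 difference of 7.41 and the 3 single cystatins one of 1.06, against 0.05 over all genes tested. Between IMQ + BZLF and IMQ + NS, 4 members were called lower and 0 higher, all 4 being stefin A members, where 2.2% of genes tested were called lower and 0.321% higher. The medians were -3.66 for the stefin A members, -0.45 for the single cystatins and -0.02 over all genes tested. Of the single cystatins, limma called 0 in this comparison, and 1 (Cstb) had an unadjusted p under 0.05. Between IMQ + BZLF and control, 3 members (Stfa1, Stfa2 and Stfa3) were called higher and 1 (Cst3) lower, where 9.65% and 10.1% of genes tested were called, with medians of 3.75 for the stefin A members, 0.61 for the single cystatins and -0.02 over all genes tested. The comparisons share samples, since the IMQ + NS samples enter the first pair of them and the control samples the first and the last. Stfa1 and Stfa2, nearly proportional over the IMQ + NS samples, may not count as separate measurements there.

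**Figure D2:**
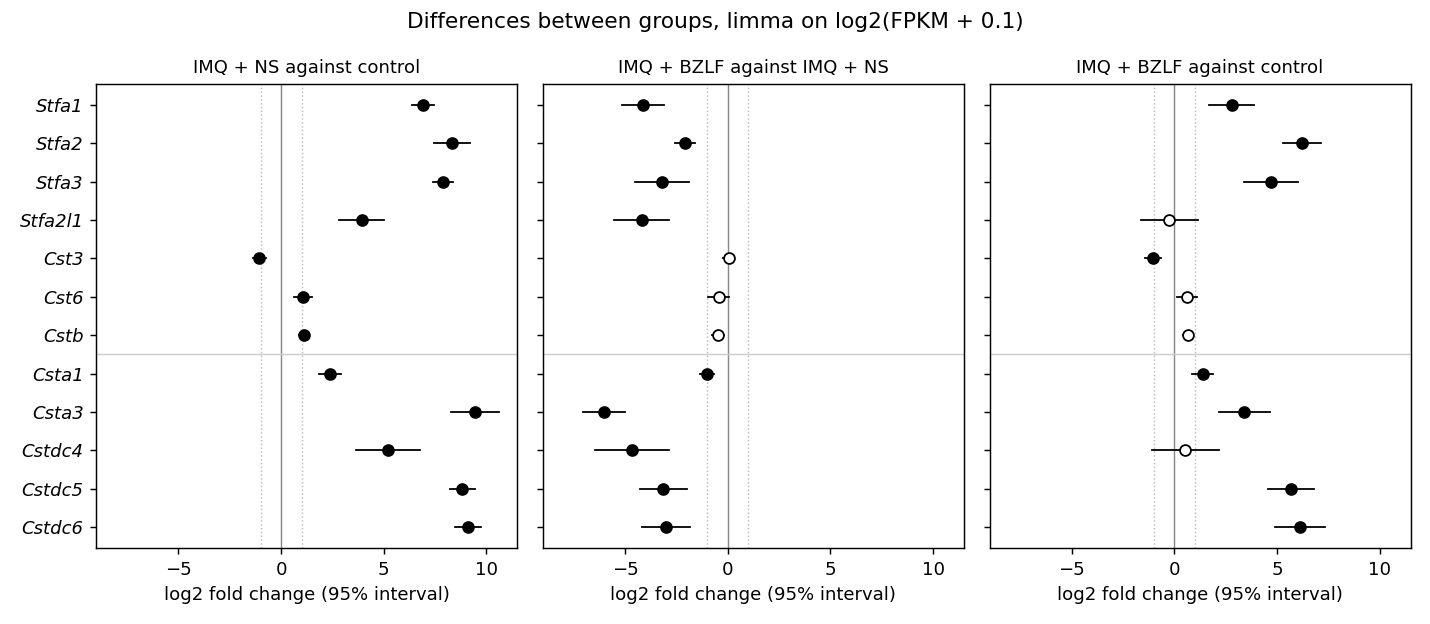
Log2 fold changes on log2(FPKM + 0.1) from limma with 95% intervals for the 7 members (above the grey line) and 5 other stefin A cluster genes (below it), with 4 samples per group. Filled points passed an adjusted p of 0.05 and more than 2-fold (dotted lines), and the 4 stefin A members lie between -4.18 and -2.09 in the middle panel, where the points of Cst3, Cst6 and Cstb lie at 0.04, -0.45 and -0.47.

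The order of the levels changed with the groups. In control skin it ran from Cst3 (mean 1446 FPKM) through Cstb (149.8), Cst6 (117) and Stfa3 (8.03) to Stfa2l1 (0.535), Stfa2 and Stfa1, and Stfa2l1 and Stfa2, as well as Stfa2 and Stfa1, overlapped between samples. In IMQ + NS skin Stfa3 (1960) came first, followed by Cst3 (684), Cstb (329), Cst6 (247), Stfa2 (49.4), Stfa1 (13.9) and Stfa2l1 (9.51), with overlap between Cstb and Cst6 and between Stfa1 and Stfa2l1. In IMQ + BZLF skin Cst3 (707) was again first, followed by Stfa3 (281), Cstb (238), Cst6 (183), Stfa2 (11.6), Stfa1 (0.838) and Stfa2l1 (0.521). There Stfa3 and Cstb, Cstb and Cst6, and Stfa1 and Stfa2l1 overlapped.

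The balance between both kinds of inhibitor was measured as the summed FPKM of the 4 stefin A members over that of the 3 single cystatins. The ratio was 0.00402 to 0.00596 in the control samples. It was 1.24, 1.93, 1.96 and 1.30 in the IMQ + NS samples, where the stefin A members outweighed the single cystatins, and 0.101, 0.0986, 0.368 and 0.455 in the IMQ + BZLF samples. This ratio leaves out 5 other genes of the cluster, which are described below. All 9 cluster genes together had 1587 and 1714 FPKM in IMQ + BZLF replicates 3 and 4, above the single cystatins (1268 and 1086 FPKM). In replicates 1 and 2 they had 372 and 503 FPKM, below the single cystatins (885 and 1274 FPKM). The stefin A members took 0.00157 to 0.00235% of all FPKM in control, 0.307 to 0.529% in IMQ + NS and 0.0180 to 0.104% in IMQ + BZLF samples. The share of the single cystatins was 0.291 to 0.431%, 0.236 to 0.270% and 0.180 to 0.261%, in the same order. Within the single cystatins, the ratio of Cst3 to Cstb, secreted against intracellular, was 6.53 to 11.6 in control, 1.68 to 2.52 in IMQ + NS and 2.70 to 3.37 in IMQ + BZLF samples, without overlap.

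The share of Stfa3 among the stefin A members varied less in IMQ + NS samples than in control or IMQ + BZLF samples. Stfa3 made up 88.3 to 95.4% of their sum in control samples, 95.9 to 96.7% in IMQ + NS samples and 83.8, 91.4, 97.8 and 96.7% in the IMQ + BZLF samples. The ratio of Stfa3 to Stfa2 was 37.2 to 42.4 in the IMQ + NS samples, but 5.44, 11.2, 57.3 and 33.2 in IMQ + BZLF replicates 1 to 4. It was 118 and 36.7 in control replicates 2 and 3, and Stfa2 was 0 in the other control samples. The 2 IMQ + BZLF samples that were low in Stfa3 and Stfa1, replicates 1 and 2, had 13.7 and 10.3 FPKM of Stfa2. For Stfa2, replicate 3 had the lowest value, 7.97 FPKM. Stfa2l1 was highest in replicate 3, at 1.29 FPKM.

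**Figure D3:**
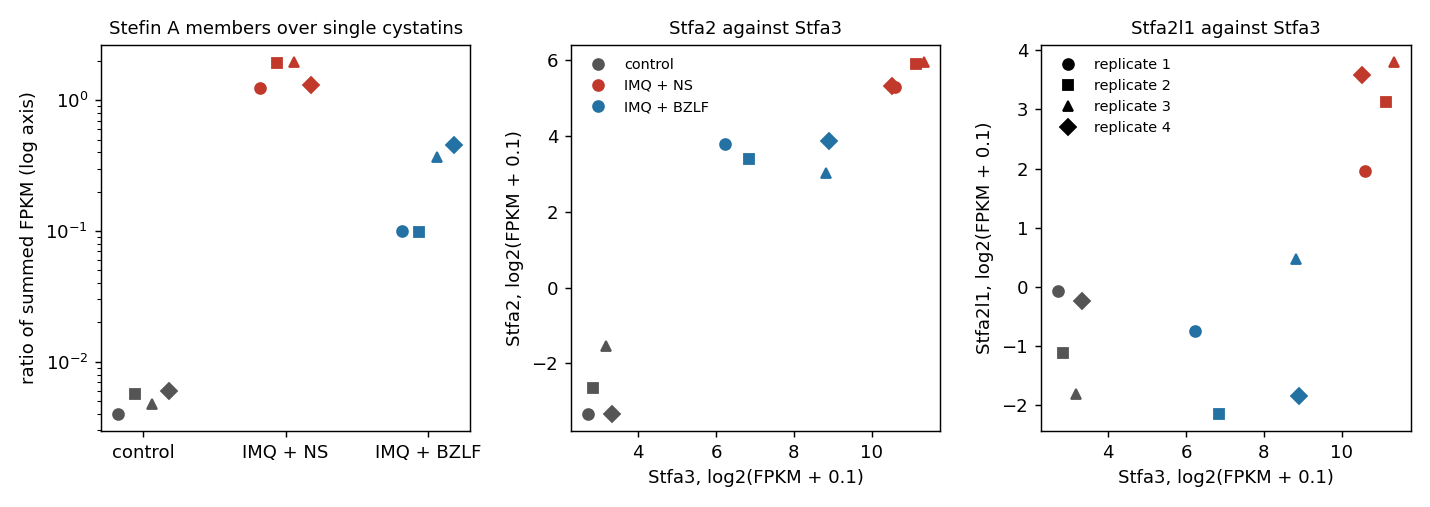
Left, ratio of the summed FPKM of the 4 stefin A members to that of the 3 single cystatins in each sample (log axis): 0.00402 to 0.00596 in control, 1.24 to 1.96 in IMQ + NS and 0.0986 to 0.455 in IMQ + BZLF samples. Middle and right, Stfa2 and Stfa2l1 against Stfa3 in the 12 samples, both axes log2(FPKM + 0.1): the IMQ + BZLF samples spread along Stfa3 from 74.5 to 478 FPKM while Stfa2 stays between 7.97 and 14.4 FPKM.

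The other genes of the cluster moved in the same directions. Of these, 5 were in the table, matched by symbol or older name: Csta1, Csta3, Cstdc4, Cstdc5 and Cstdc6, all of the stefin A type. All 5 were called higher in IMQ + NS against control, all 5 lower in IMQ + BZLF against IMQ + NS and 4 higher in IMQ + BZLF against control, with median log2 differences of 8.82, -3.15 and 3.40. Cstdc5 had the highest mean FPKM of the cluster in both IMQ groups, while in control skin Csta1 was higher (means 9.40 and 12.9 FPKM). Its levels were 6.70, 9.92, 12.3 and 8.70 FPKM in the control samples, 3254, 5016, 6405 and 2955 in the IMQ + NS samples and 208, 286, 873 and 963 in the IMQ + BZLF samples. As with Stfa3, the groups did not overlap and IMQ + BZLF replicates 3 and 4 were the high ones. Its log2 differences were 8.82, -3.15 and 5.67 (limma adjusted p = 9.80e-08, 0.00966 and 6.24e-05).

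Cstdc6 followed Cstdc5 at a lower level, with 0.991 to 2.07, 624 to 1180 and 44.1 to 222 FPKM in the 3 groups in the order above. Csta3 was 0 to 0.350 FPKM in control samples, 80.1 to 281 in IMQ + NS and 1.15 to 4.82 in IMQ + BZLF samples. Its log2 difference of IMQ + BZLF from IMQ + NS, -6.04 (SE 0.45, limma adjusted p = 4.32e-04), was the largest in size of the 9 cluster genes. Cstdc4, like Stfa2l1, overlapped control under BZLF, with 0 to 0.302 FPKM in control and 0 to 0.440 in IMQ + BZLF samples against 2.08 to 15.1 in IMQ + NS samples, and its difference from control was 0.54 (95% interval -1.10 to 2.17, limma adjusted p = 0.55).

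Csta1 had the smallest changes of the cluster in IMQ + NS against control and in IMQ + BZLF against IMQ + NS, from 7.95 to 16.8 FPKM in control to 53.7 to 84.0 in IMQ + NS and 28.2 to 40.5 in IMQ + BZLF samples. Its fall under BZLF of 1.02 on the log2 scale (limma adjusted p = 0.00701) was under 2-fold with 3 other scalings (0.97 at the least), without IMQ + BZLF replicate 1 (0.96) and without IMQ + NS replicate 3 (0.91). The 9 cluster genes together took 0.00593 to 0.00830% of all FPKM in control, 1.08 to 2.10% in IMQ + NS and 0.0754 to 0.360% in IMQ + BZLF samples.

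**Figure D4:**
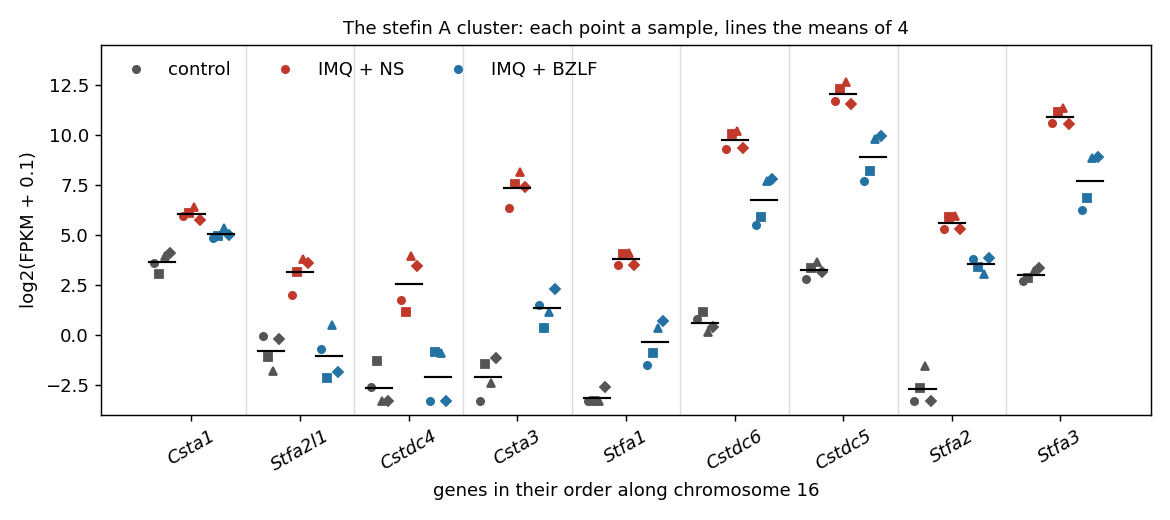
The 9 stefin A cluster genes in their order along chromosome 16, with log2(FPKM + 0.1) of each sample as a point and the mean of the 4 samples of a group as a line. Every gene is higher in the IMQ + NS samples than in the control and IMQ + BZLF samples, and Stfa2l1 and Cstdc4 are the genes whose IMQ + BZLF samples overlap the control samples.

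Markers of cell types also differed between the groups, in directions that varied with the cell type. The shares called over all genes tested are those given above beside the counts of members. Of 12 neutrophil markers, 10 were called higher and 1 (Mpo) lower in IMQ + NS against control, and 10 lower and 1 (Mpo) higher in IMQ + BZLF against IMQ + NS. In IMQ + BZLF against control, 3 were called higher, Camp by 2.46, S100a8 by 1.66 and Ngp by 1.54 on the log2 scale, and 2 lower, Mpo (-1.66) and Retnlg (-1.48), in limma. Their summed FPKM was 41.5 to 59.4 in control, 3147 to 9914 in IMQ + NS and 70.9 to 94.2 in IMQ + BZLF samples, most of it from S100a8 and S100a9, which keratinocytes also make. Without these, the sum was 14.1 to 17.9 in control, 41.9 to 83.1 in IMQ + NS and 11.1 to 18.1 in IMQ + BZLF samples. Ly6g, a defining neutrophil marker, was 0 in 2 control samples and in 1 IMQ + BZLF sample, and reached 0.426 to 1.41 FPKM in IMQ + NS samples. It was 0.443 FPKM in IMQ + BZLF replicate 4, so that the IMQ groups overlapped. The part of neutrophils in the differences of the members was not tested.

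Of 10 keratinocyte markers, 6 were called higher in IMQ + NS against control, 1 lower in IMQ + BZLF against IMQ + NS and 2 higher in IMQ + BZLF against control. They added up to 2303 to 3519, 5162 to 7988 and 2543 to 4094 FPKM in the same order of groups. Fibroblast markers, which like Cst3 were lower in both IMQ groups, added up to 13085 to 18643, 3681 to 4890 and 4286 to 8109 FPKM, with 5 of 6 called lower against control in each. Markers of muscle (6 of 6), adipocytes (3 of 5) and sebaceous gland (2 of 6) were also called lower in both IMQ groups. Of 8 macrophage markers, limma called 0 in IMQ + NS against control, with 8 at an unadjusted p under 0.05, 1 lower in IMQ + BZLF against IMQ + NS and 2 (C1qa and C1qc) lower in IMQ + BZLF against control. All 12 markers of the hair shaft and inner root sheath were called higher in both IMQ groups against control, and 0 between the IMQ groups, with 3 at an unadjusted p under 0.05. The part of these cell types in the differences of the members was not tested. Without control replicate 2, the library with high hair markers, the log2 differences of IMQ + NS against control were 6.86, 8.33, 7.83 and 3.82 for Stfa1, Stfa2, Stfa3 and Stfa2l1 and -1.21, 0.98 and 1.15 for Cst3, Cst6 and Cstb, so that the call of Cst6 was lost.

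The proteases that cystatins inhibit include the cathepsins and legumain, and 11 of these genes were tested. Of them, 2 were called lower and 0 higher in IMQ + NS against control, with 8 at an unadjusted p under 0.05 in limma. Of all genes tested, 11% were called lower and 11.4% higher in this comparison. The shares were 2.2% and 0.321% in IMQ + BZLF against IMQ + NS, and 10.1% and 9.65% in IMQ + BZLF against control. Ctsk, the collagen-degrading cathepsin K of osteoclasts and fibroblasts, fell by 2.36 on the log2 scale (limma adjusted p = 1.47e-04), from 548 to 1216 FPKM in control to 138 to 212 in IMQ + NS samples. Ctso, cathepsin O, fell by 1.11 on the log2 scale (limma adjusted p = 2.04e-04). Between both IMQ groups, 1 was called lower under BZLF and 0 higher, with 3 at an unadjusted p under 0.05. The called gene was Ctss, cathepsin S of antigen-presenting cells, which fell by 1.02 on the log2 scale (limma adjusted p = 0.0145) from 86.5 to 132 FPKM to 35.5 to 60.9 FPKM, and its fall was under 2-fold without IMQ + BZLF replicate 1 (0.84) or IMQ + NS replicate 3 (0.91) and with 3 other scalings (0.96 to 0.99). Against control, IMQ + BZLF had 1 lower (Ctsk, -2.21) and 0 higher, and Ctso (-0.96) was also called with equal sums, with quantile normalization and without control replicate 2 or IMQ + BZLF replicates 2 or 4 (-1.06 to -1.01). The medians of the list were -0.31, 0.03 and -0.38 in the 3 comparisons. Legumain, the target of Cst6, differed by 0.06, -0.43 and -0.38, and cathepsin L by 0.36, -0.18 and 0.19, none of them past 2-fold.

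Of other cystatins, Cst7 (cystatin F, of immune cells) was the 1 type 2 gene tested and differed by -0.55, -0.42 and -0.97 on the log2 scale without a call. The last of these was called with equal sums (-1.07, limma adjusted p = 0.0488), with quantile normalization (-1.01, limma adjusted p = 0.0467) and without IMQ + BZLF replicate 3 (-1.29, limma adjusted p = 0.0197). Type 3 cystatins are secreted plasma proteins, and 2 were tested. Fetub, which encodes fetuin-B, was called higher in IMQ + NS, at 1.84 to 5.41 FPKM against 0.172 to 0.323 in control (log2 difference 3.11, limma adjusted p = 1.15e-04), and lower in IMQ + BZLF, at 0.462 to 0.686 FPKM (-2.13, limma adjusted p = 0.00571). Against control, IMQ + BZLF was not called for Fetub, but it was called higher without control replicates 1 or 2 or IMQ + BZLF replicates 1 or 3 (1.02 to 1.08). Of 5 inhibitors outside the cystatin family, Birc5 (survivin, of dividing cells) was called higher in IMQ + NS by 1.70 (limma adjusted p = 0.0399), a call that was lost without control replicates 1, 3 or 4 or any of the IMQ + NS samples (adjusted p 0.0669 to 0.103). Birc5 was 37.1 FPKM in control replicate 2, the library with high hair markers, against 4.16 to 7.05 in the other control samples. Without that library the log2 difference was 2.40 in IMQ + NS (limma adjusted p = 1.2e-05) and, in IMQ + BZLF against control, 1.94 (limma adjusted p = 3.36e-05) in place of 1.23 with no call. Cast, the calpain inhibitor calpastatin, was called higher in IMQ + BZLF against control (1.09, limma adjusted p = 6.43e-05, but 0.98 with equal sums) and Ctla2a lower (-1.36, limma adjusted p = 0.0306), the latter not without control replicates 3 or 4 or IMQ + BZLF replicates 1 or 4 (adjusted p 0.0643 to 0.0849), and Ctla2a was also called lower in IMQ + NS without control replicate 2 (-1.15, limma adjusted p = 0.0169). Of 10 calpain genes, Capn12, a calpain of the hair follicle, was called higher in both IMQ groups against control (5.98 and 6.36) and Capn3, the calpain of skeletal muscle, lower (-2.33 and -2.10), and limma called 0 between the IMQ groups, with 2 at an unadjusted p under 0.05. The shares called over all genes tested, given above for the cathepsins, apply to these lists too.

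The genes with the most similar profile were sought among the 12650 tested genes whose FPKM averaged 1 or more, by Pearson r of log2(FPKM + 0.1) over the 12 samples, which share the 3 groups. Most like Stfa3 were its cluster neighbours Cstdc5 (0.996) and Cstdc6 (0.991), and Gsdmc (0.986). Stfa1 was most like Sprr2i (0.990), Krt16 (0.988) and Serpinb3a (0.988), and Stfa2 was most like Porcn (0.989), Stxbp2 (0.987) and Slc5a8 (0.984). Krt16 is a keratin of hyperproliferative epidermis, and Sprr2i is a precursor of the cornified envelope. Stfa2l1 was less closely matched, by Rab5if (0.950), Defb3 (0.942) and Psat1 (0.939). For the single cystatins these genes were H2-Ab1 (0.994), Chp2 (0.992) and Serping1 (0.991) with Cst3, Sgk1 (0.948), Aadacl3 (0.933) and Stard5 (0.925) with Cst6, and Klk7 (0.981), Slc37a2 (0.972) and Ampd3 (0.972) with Cstb. H2-Ab1 is a major histocompatibility complex class II gene, and Klk7 is a serine protease of the cornified layer. Between members, r was 0.975 for Stfa1 and Stfa3 and 0.568 for Stfa2 and Stfa2l1, the near-identical pair.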

How the data were processed

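RNA-seq of 12 back skin samples was analysed, with 3 groups of 4. The authors deposited FPKM values, 1 per gene and sample, and no counts were used here. By the study's methods, RNA was extracted with mirVana, libraries were made with TruSeq Stranded Total RNA, reads were aligned with Bowtie2 to mRNA and lncRNA transcripts, and eXpress gave the FPKM values. The labels instead name TRIzol and a VAHTS kit, and the submitters' processing notes name fastp, HISAT2, HTSeq, R 3.2.0 and mm10, so which steps made the values could not be settled. The number of fragments behind a value is unknown: of 34644 values under 1 FPKM, 21.8% were whole multiples, with a tolerance of 0.05, of the smallest value of their gene, and counts were not rebuilt. The precision is that of the 4 samples per group, which the labels number but do not tie to separate animals, so p-values measure the spread between these samples.

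The 15288 genes whose FPKM averaged 0.1 or more were tested on log2(FPKM + 0.1) per pair of groups with limma 3.58.1 in R 4.3.3 (variances with a trend), with Benjamini-Hochberg adjustment over all of them, after a check on simulated data. A call needed an adjusted p under 0.05 and a log2 difference over 1 in size. Error values are SD or SE as marked. Python 3.11.15, pandas 2.3.3, Biopython 1.88 and matplotlib 3.10.9 did the rest. Sequences were read from GENCODE M21 and RefSeq tables of GRCm38, where the authors' annotation is not known. The named genes were the 7 members, the other detected stefin A cluster genes, at most 3 called genes of each further list and comparison, and the 3 most similar profiles per member. Values of cathepsin L, legumain and Cst7, which were not called, and of the markers Ly6g and Retnlg, and of Mpo and Ngp in comparisons where this rule did not name them, were added after they had been seen. Members and lists were chosen with earlier results of these data known. The replicate numbers were not taken to pair samples, since same-numbered samples of 2 groups correlated between -0.152 and 0.26 in their deviations from the group means.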

Additional observations from a re-analysis of the deposited data

Results flagged for a closer look

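In groups of 4 samples, the highest and the lowest value of the 7 members and 5 other cluster genes were compared with the rest by the gap to the nearest sample over the whole range, with Dixon's 95% limit for 4 values. Of 36 groups, 2 held a sample past the limit, where chance gives about 1 in 20 groups of values without ties at 0. Stfa1 in control replicate 4 had 0.0616 FPKM while the other 3 control samples were listed at 0. Beside 3 values of 0, any value above 0 is past the limit, so this flag carries no information. Cstb in IMQ + NS replicate 3 had 399.7 FPKM against 295 to 312 in the other 3 samples of that group, and without that sample Cstb was still called higher than control.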

How the results depend on the processing

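Of 378 log2 differences of the members under the alternatives, 361 kept their direction and their side of the limits, 14 lost a call and 3 changed sign. The 3 changes of sign were Cst3 in IMQ + BZLF against IMQ + NS (-0.037 without IMQ + BZLF replicate 3, within a range of -0.037 to 0.15 over the samples left out) and Stfa2l1 in IMQ + BZLF against control (0.10 and 0.0040 without IMQ + BZLF replicates 2 and 4, within a range of -0.77 to 0.10), all of which were no calls. Among the other named genes, Ctss in IMQ + NS against control, also no call, changed to -0.020 with equal sums. The number of members called higher in IMQ + NS against control, 6, was 4 with equal sums, 5 with quantile normalization and 5 to 6 with a sample left out, since Cst6, and with equal sums also Cstb, then rose by less than 2-fold. Of all 15288 genes tested, 1463 were then called higher with equal sums, 1514 with quantile normalization and 1507 to 2196 with a sample left out, in place of 1740. The number of members called lower in IMQ + BZLF against IMQ + NS, 4, was 3 without IMQ + BZLF replicate 2, where 255 of all genes tested were called lower in place of 336. The number of members called lower was 0 to 1 with a sample left out in IMQ + NS against control (0 without control replicate 3) and, likewise, in IMQ + BZLF against control (0 without control replicates 1, 3 or 4 or IMQ + BZLF replicate 1), since Cst3 then fell by less than 2-fold. Over all genes tested, 1611 in place of 1678 were called lower in IMQ + NS against control without control replicate 3. In IMQ + BZLF against control, 1415, 1412, 1490 and 1279 were called lower without those 4 samples in the order given, in place of 1542. With the adjusted p alone, 5 members were called higher in IMQ + BZLF against control, Cst6 and Cstb being added, where 3640 of the 15288 genes tested were called higher in place of 1475. Equal sums moved the median of all genes in IMQ + NS against control from 0.05 to -0.07 and in IMQ + BZLF against control from -0.02 to -0.12. With the replicate block, 6 members were called higher and 1 lower in IMQ + NS against control, 4 lower in IMQ + BZLF against IMQ + NS, and 3 higher and 1 lower in IMQ + BZLF against control, which changed no count. The depth behind low values of Stfa1, Stfa2 and Stfa2l1 in control samples is unknown, so a value of 0 there sets no upper limit.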
